A study of Mus musculus with 15 samples.

Results

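Homologous recombination and the Fanconi anemia pathway were followed here through 35 genes, chosen by name from the gene symbols of the deposited count tables. All 35 were listed for all 5 groups, among 12721 genes that were listed for every group, and none was absent. RNA-seq had been run on B16.F10 cells, a mouse melanoma line recorded as wild type, grown as a monolayer in 1% oxygen. The 15 libraries form 5 groups of 3. Hif1a_siRNA_Dox cells received an siRNA against Hif1a as lipoplexes at 25 nM and, 24 h later, doxorubicin at 0.25 µM for 24 h. Dox cells received the drug with no siRNA, Hif1a_siRNA cells received the Hif1a siRNA with no drug, NC_siRNA cells received a negative control siRNA, and Control cells received neither. No group combined the negative control siRNA with doxorubicin, so any comparison of Hif1a_siRNA_Dox with Dox also contains the transfection. For the groups without the drug, no harvest time after transfection is stated. Replicates are named biological in the labels, which do not speak of separate cultures, so every p-value rests on the scatter among these libraries, which may be technical.

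Homologous recombination repairs a double-strand break by copying an intact sister chromatid. The MRE11, RAD50 and NBN proteins with RBBP8 (CtIP) and EXO1 trim the break to single-stranded DNA, BRCA1, PALB2 and BRCA2 bring a recombinase onto that strand, and the recombinase paralogs, RAD52 and the RAD54 proteins assist strand exchange. The Fanconi core complex attaches ubiquitin to FANCD2 and FANCI at a crosslink between DNA strands, USP1 removes it, and SLX4 with MUS81 and EME1 cuts branched DNA. Much of this machinery is made in S and G2 phase. Doxorubicin, an anthracycline, traps topoisomerase II on DNA and so produces double-strand breaks, and HIF-1, of which Hif1a encodes the oxygen-regulated subunit, drives transcription in hypoxia.

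Library totals lay between 23825110 and 28734303 counted reads. Gene coordinates are those of GRCm38.p6. The unit of every level is CPM, the reads of a gene over the TMM-corrected library size, which compares 1 gene between libraries and not 1 gene with another. The smallest member count was 5 reads, in Fancb and Fancf. Hif1a fell in the Hif1a_siRNA libraries (log2 fold change −3.99 ± 0.09 SE against NC_siRNA, edgeR quasi-likelihood adjusted p = 1.24e-20). All 8 melanocyte markers were detected, none of 5 leukocyte markers was listed for any group, and of 8 stromal, epithelial and endothelial markers only Pdgfra was listed. It averaged 8.83 ± 1.93 CPM in Hif1a_siRNA_Dox, 3.81 ± 0.33 in Dox, 0.845 ± 0.303 in Hif1a_siRNA, 0.875 ± 0.315 in NC_siRNA and 0.963 ± 0.140 in Control (SD, n = 3 each), so it moved with the drug (log2 fold change 1.98 in Dox against Control and 3.38 in Hif1a_siRNA_Dox against Hif1a_siRNA) and was higher in Hif1a_siRNA_Dox than in Dox (1.21, edgeR adjusted p = 0.000207). The summed melanocyte markers were 29875 to 36751 CPM in Hif1a_siRNA_Dox, 40071 to 46686 in Dox, 9149 to 9556 in Hif1a_siRNA, 8352 to 9026 in NC_siRNA and 13517 to 14650 in Control, so the sum was highest with doxorubicin. The single markers did not all follow it: 6 rose and 2 fell in Dox against Control, 5 rose and 3 fell in Hif1a_siRNA_Dox against Hif1a_siRNA, and Sox10 fell in both (−2.81 and −2.60), as did Tyr (−0.43 and −1.73). The part of these marker shifts in the values below was not tested. Libraries of 1 group differed by more than sampling noise, and the widest such spread was within Hif1a_siRNA_Dox.

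Promoter sequence was available for 26 of the 35 genes, as RefSeq windows of GRCm38.p6 (the build also called mm10) that run from 250 bases before to 50 bases after the start of transcription. An E2F-like match was TTCCCGC on either strand, or in its place TTGGCGC, or else TTCGCGC, or lastly TTGCCGC, letters that the S phase transcription factors of the E2F family are known to bind. Some genes have more than 1 window. Such a match lay in 15 of the members' 29 windows (51.7%), which belong to 14 of the 26 genes, against 9.6% of all 32851 windows. The windows shown are those of the 4 members with a window that rose most in Hif1a_siRNA against NC_siRNA and of the 3 that fell, all on the minus strand, and capitals mark the E2F-like match: Brip1 (chr11:86201144-86201443), Rad51ap1 (chr6:126939538-126939837), Bard1 (chr1:71102923-71103222), Rad54l (chr4:116123641-116123940), Mus81 (chr19:5488330-5488629), Fancc (chr13:63431696-63431995) and Blm (chr7:80534949-80535248).
Brip1: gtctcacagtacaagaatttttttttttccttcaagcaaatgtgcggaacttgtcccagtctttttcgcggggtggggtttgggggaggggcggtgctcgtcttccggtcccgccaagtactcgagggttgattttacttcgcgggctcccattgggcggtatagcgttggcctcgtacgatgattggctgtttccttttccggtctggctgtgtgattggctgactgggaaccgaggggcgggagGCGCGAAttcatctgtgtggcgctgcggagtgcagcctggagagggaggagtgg
Rad51ap1: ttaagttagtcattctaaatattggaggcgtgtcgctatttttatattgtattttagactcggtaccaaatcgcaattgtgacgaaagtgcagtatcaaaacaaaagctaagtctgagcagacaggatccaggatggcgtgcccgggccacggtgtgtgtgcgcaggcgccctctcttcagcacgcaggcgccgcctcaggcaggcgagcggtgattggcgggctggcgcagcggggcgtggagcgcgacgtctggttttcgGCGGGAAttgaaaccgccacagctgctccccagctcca
Bard1: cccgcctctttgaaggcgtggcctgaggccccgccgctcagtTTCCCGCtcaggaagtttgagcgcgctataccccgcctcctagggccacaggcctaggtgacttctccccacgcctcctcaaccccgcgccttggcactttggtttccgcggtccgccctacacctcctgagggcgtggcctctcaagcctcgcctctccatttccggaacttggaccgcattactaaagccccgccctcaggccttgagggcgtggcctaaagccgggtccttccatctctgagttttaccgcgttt
Rad54l: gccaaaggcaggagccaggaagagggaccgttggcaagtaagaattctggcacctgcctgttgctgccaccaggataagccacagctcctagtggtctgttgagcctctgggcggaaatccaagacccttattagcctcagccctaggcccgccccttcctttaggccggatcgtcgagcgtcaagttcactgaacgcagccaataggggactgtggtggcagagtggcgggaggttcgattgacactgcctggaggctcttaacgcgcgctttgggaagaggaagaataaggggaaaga
Mus81: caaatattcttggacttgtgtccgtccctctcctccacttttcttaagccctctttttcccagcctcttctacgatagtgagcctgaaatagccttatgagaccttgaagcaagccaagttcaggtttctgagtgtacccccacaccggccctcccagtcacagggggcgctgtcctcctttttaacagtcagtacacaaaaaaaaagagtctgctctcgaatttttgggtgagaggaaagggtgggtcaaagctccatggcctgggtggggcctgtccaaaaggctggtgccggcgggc
Fancc: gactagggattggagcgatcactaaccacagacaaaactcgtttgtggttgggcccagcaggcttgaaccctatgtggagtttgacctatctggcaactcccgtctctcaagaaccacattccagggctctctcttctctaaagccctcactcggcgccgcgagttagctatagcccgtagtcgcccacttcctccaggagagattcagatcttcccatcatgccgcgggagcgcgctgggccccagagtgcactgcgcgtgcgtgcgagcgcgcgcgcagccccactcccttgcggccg
Blm: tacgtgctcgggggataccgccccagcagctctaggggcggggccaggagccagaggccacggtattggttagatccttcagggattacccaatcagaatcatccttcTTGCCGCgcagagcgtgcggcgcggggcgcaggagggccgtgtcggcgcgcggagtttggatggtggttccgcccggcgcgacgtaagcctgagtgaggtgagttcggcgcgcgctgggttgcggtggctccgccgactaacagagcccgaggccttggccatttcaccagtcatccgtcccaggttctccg
Of the 4 that rose, Brip1, Rad51ap1 and Bard1 each carry 1 match and Rad54l carries none. Of the 3 that fell, Blm carries 1 and Mus81 and Fancc none. Over the 26 genes, the median log2 fold change in Hif1a_siRNA against NC_siRNA was 1.28 for the 14 with a match and 0.60 for the 12 without. CCAAT, on either strand, was found in 65.5% of the members' windows and 37.4% of all windows. The hypoxia-element letters ACGTG or GCGTG were found in 62.1% and 43.8%, and the cell cycle element TTTGAA in 10.3% and 17.9%. For CCAAT and the hypoxia-element letters too the median was higher with a match (17 genes each) than without (9 each), at 0.94 and 0.64 for CCAAT and 0.94 and 0.57 for the hypoxia-element letters. The E2F-like letters thus did not stand alone in this. For TTTGAA the medians were 1.2 and 0.74, but only 3 genes had a match (Bard1, Eme1 and Rad51b) and 23 had none. Bard1 also carries an E2F-like match. Base composition was not matched between these sets, matches of different motifs were counted separately and may overlap, and a match is a description of letters only.

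Across the 5 groups the 35 genes did not move as 1 block. The mean level was highest in Hif1a_siRNA for 17 genes, in Hif1a_siRNA_Dox for 9, in Control for 5, in NC_siRNA for 3 and in Dox for 1. It was lowest in NC_siRNA for 14 genes, in Dox for 8, in Control for 8 and in Hif1a_siRNA_Dox for 5, and for no gene was Hif1a_siRNA the lowest. The highest and lowest groups were not counted over all tested genes, so these numbers describe the members only. The summed level of all 35 was 1100 to 1126 CPM in Hif1a_siRNA_Dox, 957.6 to 981.3 in Dox, 1213 to 1222 in Hif1a_siRNA, 589.7 to 608.6 in NC_siRNA and 789.8 to 805.9 in Control. No 2 groups overlapped in this sum, and Usp1 alone made up 317 to 362 CPM of it in Hif1a_siRNA_Dox.

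**Figure D1:**
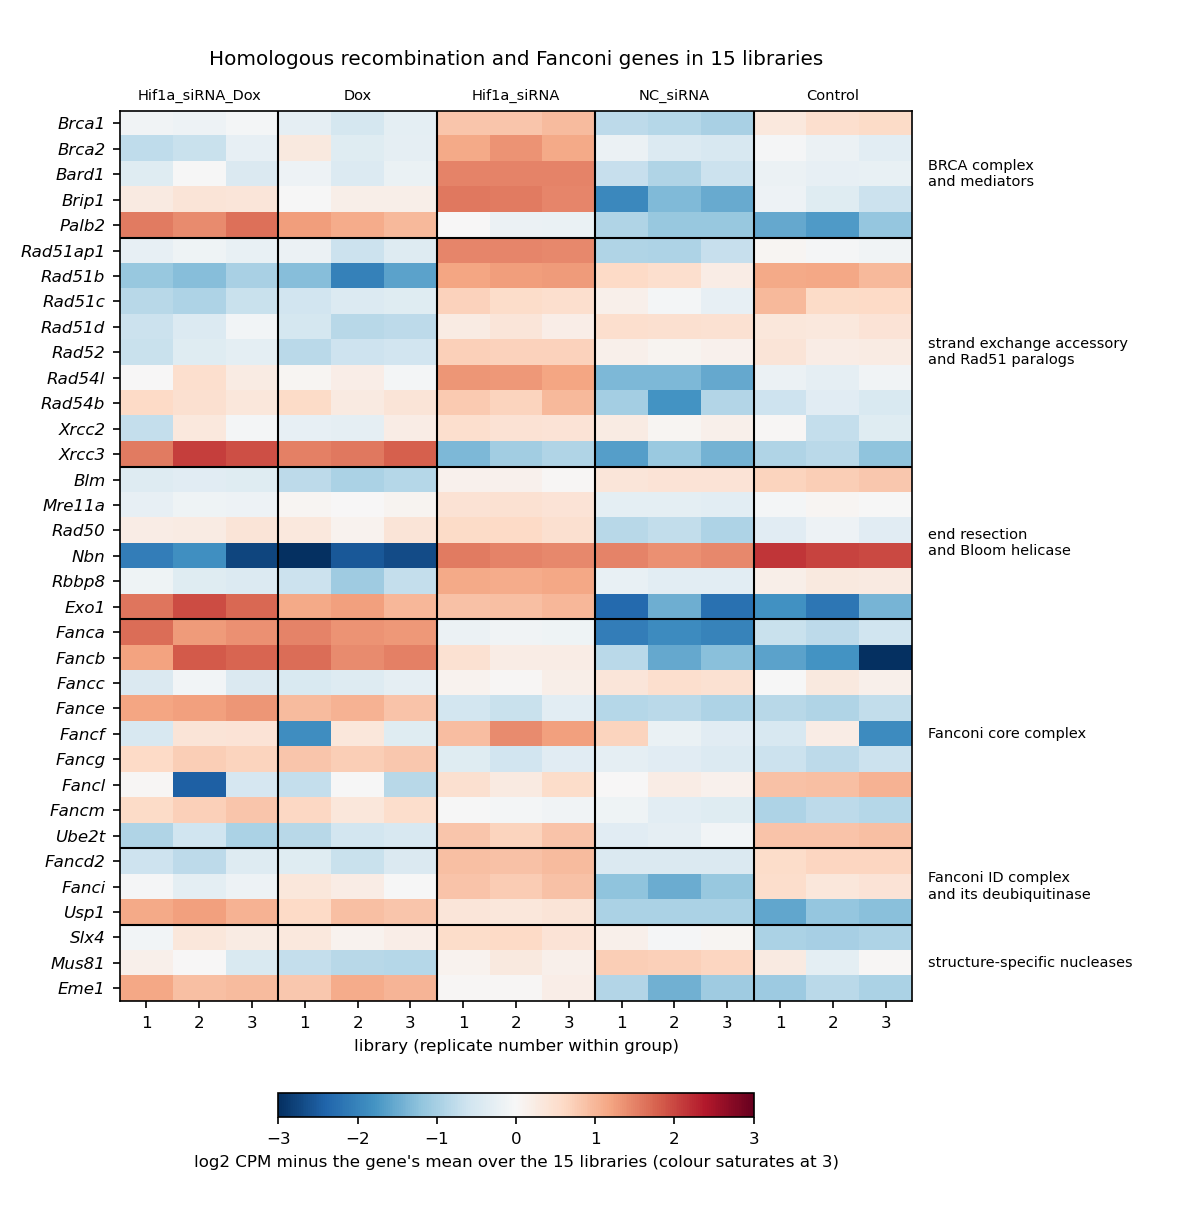
Level of each of the 35 genes in each of the 15 libraries, as log2 CPM minus the gene's own mean over the libraries (red above, blue below), with genes grouped by role and libraries by group. The Hif1a_siRNA columns are mostly red, the NC_siRNA columns mostly blue, and both doxorubicin groups split into strongly red rows (Xrcc3, Fanca, Fancb) and strongly blue rows (Nbn, Rad51b).

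The comparison of Hif1a_siRNA with NC_siRNA asked what loss of Hif1a mRNA did in hypoxic cells. Of the 35 genes 25 were higher and 3 were lower at an edgeR adjusted p under 0.05, where 67.7% of all tested genes were called, 36.4% as higher and 31.2% as lower. The median log2 fold change was 1.02 for the members and 0.057 for all tested genes. All 5 genes of the BRCA complex and its mediators rose, as did all 3 of the FANCD2 and FANCI step and 6 of the 9 strand exchange genes. Among the 9 core complex genes 5 rose and 1 fell, among the 6 resection genes 4 rose and 1 fell, and of the 3 nuclease genes 2 rose and 1 fell. Counts and sums of the 9 core complex genes include Ube2t, whose product serves the complex and is not a subunit of it. The groups did not overlap for 32 of the 35 genes, against 77.3% of all tested genes. In bulk RNA, a larger share of cells in S phase and more RNA per cell cannot be told apart.

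Brip1 (gene ID 237911, chr11:86058136-86201215), the helicase that binds BRCA1, had the largest increase. Its level was 37.3, 36.8 and 34.4 CPM in the Hif1a_siRNA libraries, against 3.27, 5.02 and 4.39 CPM in the NC_siRNA libraries, an 8.55-fold difference (log2 fold change 3.10 ± 0.14 SE, edgeR adjusted p = 4.54e-15). All 3 Hif1a_siRNA libraries lay far above all 3 NC_siRNA libraries. Brca1 (gene ID 12189, chr11:101488761-101551955), the ubiquitin ligase that steers breaks toward recombination, stood at 116, 117 and 125 CPM with the Hif1a siRNA and at 38.1, 36.1 and 33.4 CPM with the control siRNA. Its partner Bard1 averaged 34.1 ± 0.2 CPM in Hif1a_siRNA and 7.29 ± 0.68 CPM in NC_siRNA (SD, n = 3 each). For both genes the groups were separate, at log2 fold changes of 1.73 ± 0.09 and 2.22 ± 0.12 SE. Brca2, which loads the recombinase, was at 37.7, 43.7 and 37.6 CPM in Hif1a_siRNA, against 15.3, 12.9 and 12.2 CPM in NC_siRNA (1.56 ± 0.15 SE). Palb2, the bridge between BRCA1 and BRCA2, rose least of these 5, by 0.94 ± 0.14 SE on the log2 scale.

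Among the strand exchange genes, Rad54l, a DNA motor protein that acts with the recombinase, rose most. It measured 18.9, 18.5 and 17.1 CPM in the Hif1a_siRNA libraries, against 2.95, 2.97 and 2.60 CPM in the NC_siRNA libraries (log2 fold change 2.67 ± 0.15 SE, edgeR adjusted p = 1.5e-13). Its relative Rad54b rose by 1.99 ± 0.16 SE and Rad51ap1, a stimulator of strand pairing, by 2.29 ± 0.11 SE. Rad51b, Rad51c and Rad52, the other members of this role that were called, rose by 0.57 to 0.79. The paralogs Rad51d, Xrcc2 and Xrcc3 did not pass the test, with log2 fold changes of −0.21, 0.30 and 0.30. Rad51d passed as lower with RLE scaling (edgeR adjusted p = 0.0417) and with DESeq2 (DESeq2 adjusted p = 0.0362). In a fit of these 2 groups alone Rad51d passed as lower (edgeR adjusted p = 0.00116) and Xrcc2 as higher (0.0123).

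In end resection Exo1, a nuclease that extends the single-stranded tail, was at 10.7, 10.8 and 11.5 CPM in Hif1a_siRNA and at 1.15, 2.09 and 1.23 CPM in NC_siRNA. That is a log2 fold change of 2.88 ± 0.20 SE (edgeR adjusted p = 7.32e-12) with no overlap between the groups. Rbbp8, Rad50 and Mre11a (the older symbol of Mre11) rose by 1.42, 1.39 and 0.74 on the log2 scale. Nbn, the third subunit of the MRE11 complex, averaged 61.6 ± 2.6 CPM in Hif1a_siRNA and 59.0 ± 2.3 CPM in NC_siRNA, and its libraries overlapped (0.06 ± 0.11 SE, edgeR adjusted p = 0.636). Blm, the Bloom syndrome helicase, was at 46.9, 46.7 and 44.0 CPM with the Hif1a siRNA, against 55.0, 57.3 and 56.8 CPM with the control siRNA, and so fell by 0.30 on the log2 scale (edgeR adjusted p = 0.000905).

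Of the Fanconi genes Fanci and Fancd2, the pair that is ubiquitinated, rose together. Fanci was at 20.3, 18.9 and 20.6 CPM in Hif1a_siRNA, against 4.82, 3.99 and 5.10 CPM in NC_siRNA (log2 fold change 2.103 ± 0.13 SE, edgeR adjusted p = 1.35e-12). Fancd2 was at 50.2, 49.98 and 52.3 CPM in Hif1a_siRNA and at 19.9, 20.1 and 19.9 CPM in NC_siRNA (1.35 ± 0.10 SE). Usp1 (gene ID 230484, chr4:98923810-98935543), their deubiquitinase, was at 196, 194 and 200 CPM in Hif1a_siRNA and at 78.7, 78.8 and 79.7 CPM in NC_siRNA (1.32 ± 0.09 SE). In each of these 3 genes every Hif1a_siRNA library lay above every NC_siRNA library. Ube2t, the ubiquitin-conjugating enzyme that serves the core complex, rose by 1.02 ± 0.11 SE, Fanca by 1.84 ± 0.10 SE and Fancb by 1.47 ± 0.27 SE, whereas Fancg, Fancl and Fancm did not pass the test.

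Fancc, a core complex subunit, fell slightly, with 7.18, 6.80 and 7.58 CPM in Hif1a_siRNA and 8.598, 9.38 and 9.07 CPM in NC_siRNA (log2 fold change −0.33 ± 0.14 SE, adjusted p = 0.0448 in edgeR). That call was lost without Control replicate 3 and without any 1 of the NC_siRNA or Hif1a_siRNA libraries, where the adjusted p reached 0.121 at most. Fancf, with 1.52 to 2.15 CPM in Hif1a_siRNA and 0.632 to 1.26 CPM in NC_siRNA, rose by 1.09 ± 0.39 SE. Its call was lost without NC_siRNA replicate 2 or 3 or without Hif1a_siRNA replicate 2 (edgeR adjusted p up to 0.0797). Of the nucleases Mus81 fell, at 7.09, 8.19 and 7.37 CPM in Hif1a_siRNA, against 11.0, 11.0 and 10.4 CPM in NC_siRNA (−0.52 ± 0.16 SE, edgeR adjusted p = 0.00636). Its partner Eme1 rose by 1.204 ± 0.18 SE and the scaffold gene Slx4 by 0.46 ± 0.13 SE.

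**Figure D2:**
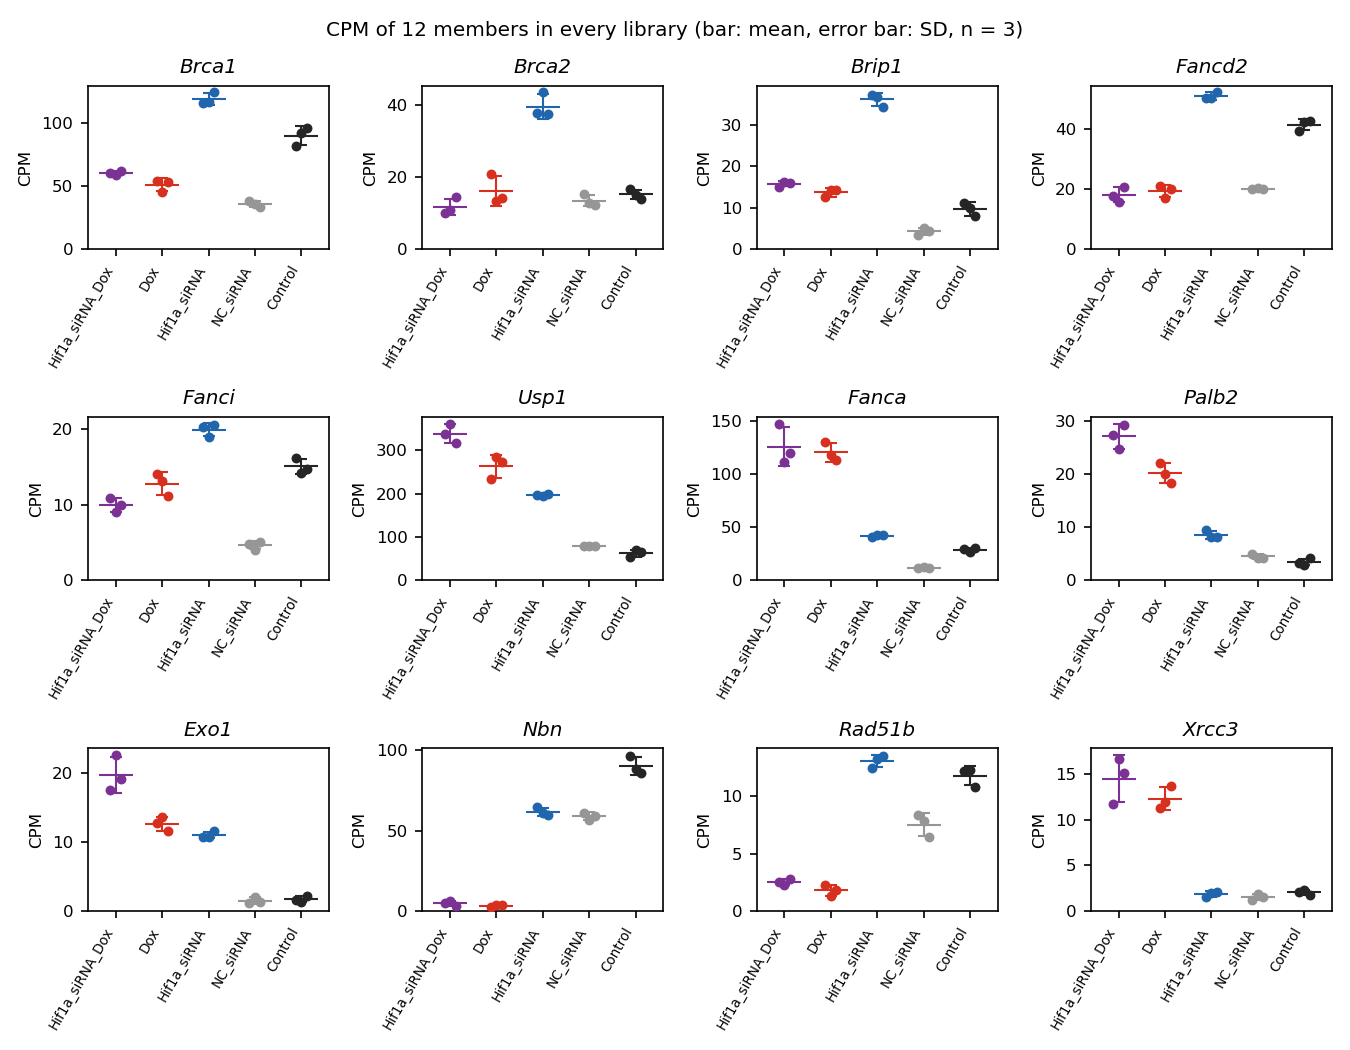
CPM of 12 of the genes in every library, each point 1 library, with the group mean as a bar and the SD (n = 3) as an error bar. Brca1, Brca2, Brip1, Fancd2 and Fanci are highest in Hif1a_siRNA, Usp1, Fanca, Palb2, Exo1 and Xrcc3 are highest in the doxorubicin groups, and Nbn and Rad51b are lowest there.

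Many of these genes were lower with the negative control siRNA than with no siRNA. Against Control, 18 of the 35 were lower in NC_siRNA and 7 were higher, where 66.8% of all tested genes were called, 33.7% as lower and 33.1% as higher. The median log2 fold change was −0.34 for the members and −0.01 for all tested genes. Fanci fell by 1.70 ± 0.13 SE on the log2 scale and stood at 4.82, 3.99 and 5.10 CPM in NC_siRNA, against 16.2, 14.2 and 14.799 CPM in Control. Brca1 was at 33.4 to 38.1 CPM in NC_siRNA, against 81.9, 92.5 and 96.5 CPM in Control (−1.33 ± 0.09 SE), and Fancd2 at 19.9 to 20.1 CPM, against 39.3, 42.1 and 42.4 CPM in Control (−1.05 ± 0.10 SE). In these 3 genes no NC_siRNA library reached the lowest Control library. Fanca, Rad54l, Brip1 and Ube2t fell by 1.10 to 1.30, while Slx4 rose by 1.02 ± 0.14 SE and Mus81 by 0.68 ± 0.16 SE. The calls of Palb2 (0.39), Fancb (0.89) and Fancl (−0.82) were lost in some of the fits without 1 NC_siRNA or Control library, where the adjusted p reached 0.157, 0.192 and 0.083. For Palb2 these were the fits without Control replicate 1 or 2 or NC_siRNA replicate 1, for Fancb those without Control replicate 3 or NC_siRNA replicate 1, and for Fancl those without any 1 of the 6 libraries. In a fit of these 2 groups alone Palb2 and Fancb did not pass (0.0698 and 0.0613), and Palb2 also missed with upper-quartile scaling (0.0634).

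Set against Control in place of the control siRNA, Hif1a_siRNA showed 25 genes higher and 2 lower, where 74.4% of all tested genes were called, 40.2% as higher and 34.2% as lower. The median was 0.54 for the members and 0.056 for all tested genes. This comparison shares libraries with both others, so the 3 sets of values stand side by side and are not independent. The genes called were not all the same: Rad51b, Rad51c and Ube2t were called higher against NC_siRNA and not against Control, and Xrcc2, Fancg and Fancm against Control and not against NC_siRNA. Bard1 (1.71 ± 0.12 SE), Brip1 (1.90 ± 0.13 SE), Brca2 (1.39 ± 0.15 SE), Exo1 (2.68 ± 0.20 SE) and Usp1 (1.68 ± 0.09 SE) lay far above Control. Brca1 (0.40 ± 0.08 SE), Fancd2 (0.30 ± 0.09 SE) and Fanci (0.40 ± 0.12 SE) exceeded it by little, and Ube2t did not pass the test, at 28.5 ± 2.0 CPM in Hif1a_siRNA and 30.1 ± 0.5 CPM in Control. The 2 genes that fell against Control were Blm and Nbn, by 0.64 and 0.55. Fance (0.32) lost its call without Hif1a_siRNA replicate 3 (edgeR adjusted p = 0.0739), and Fancg (0.27) lost it without Control replicate 2 or Hif1a_siRNA replicate 1 or 3 (up to 0.108), with RLE or upper-quartile scaling (0.0547 and 0.0931) and in a fit of these 2 groups alone (0.0922).

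**Figure D3:**
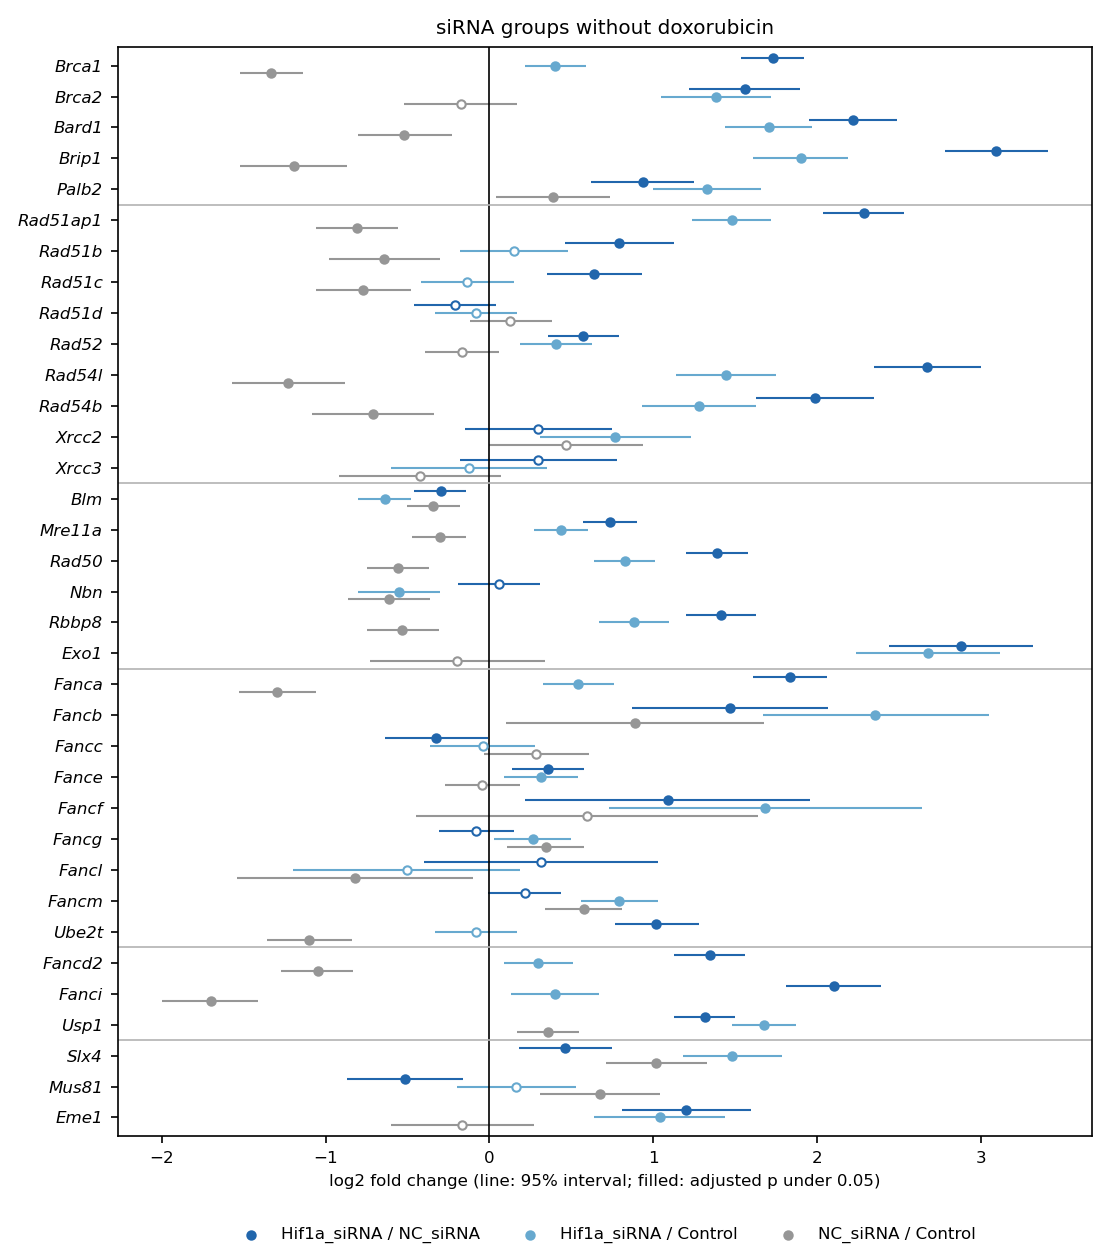
Log2 fold changes of the 35 genes in the groups without doxorubicin, with 95% intervals: Hif1a_siRNA over NC_siRNA (dark blue), Hif1a_siRNA over Control (light blue) and NC_siRNA over Control (grey), filled where the adjusted p is under 0.05. For Brca1, Fanci, Fancd2 and Ube2t the dark blue point lies far right and the grey point far left, while for Exo1 and Brca2 both blue points lie right and the grey point lies near 0.

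The comparison of Dox with Control asked how the drug alone changed these genes in hypoxic cells. Of the 35 genes 14 were higher and 14 were lower, where 83.8% of all tested genes were called, 43.9% as higher and 39.8% as lower, so the members' shares lay close to those of all genes. The median log2 fold change was 0.09 for the members and 0.097 for all tested genes. By role the counts are small and are given as description only. The core complex, counted with Ube2t (lower), had 5 genes higher and 3 lower of 9, and the strand exchange genes 2 higher and 5 lower of 9. The BRCA group had 2 higher and 1 lower of 5, resection 2 higher and 3 lower of 6, the nucleases 2 higher and 1 lower of 3, and the FANCD2 and FANCI step 1 of each among 3. The groups did not overlap for 30 genes, against 84.9% of all tested genes. Leaving out any 1 library kept all 28 calls.

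Nbn (gene ID 27354, chr4:15957587-15992589), whose product recruits the MRE11 complex to breaks, had the largest change of all 35 genes. It stood at 2.71, 3.74 and 3.41 CPM in Dox, against 96.7, 88.5 and 85.8 CPM in Control, a 27.4-fold lower level (log2 fold change −4.78 ± 0.15 SE, edgeR adjusted p = 2.51e-18). Its partners did not follow: Rad50 rose by 0.55 ± 0.08 SE, and Mre11a averaged 37.5 ± 0.8 CPM in Dox and 36.4 ± 1.5 CPM in Control (0.04 ± 0.07 SE, edgeR adjusted p = 0.588). Rad51b was at 2.28, 1.34 and 1.82 CPM in Dox, against 12.2, 12.3 and 10.8 CPM in Control (−2.70 ± 0.18 SE). Blm was at 24.7, 22.3 and 23.6 CPM in Dox and at 68.1, 71.2 and 75.0 CPM in Control (−1.60 ± 0.08 SE). For all 3 of these genes the highest Dox library lay below the lowest Control library.

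Genes that rose with the drug included Fancb, a core complex subunit on the X chromosome. It was at 6.87, 5.71 and 6.08 CPM in Dox, against 0.706, 0.617 and 0.216 CPM in Control (log2 fold change 3.59 ± 0.30 SE, edgeR adjusted p = 8.07e-11). Few reads lay behind its Control values. Exo1 was at 12.7, 13.6 and 11.6 CPM in Dox and at 1.63, 1.28 and 2.21 CPM in Control (2.88 ± 0.20 SE). Xrcc3, a recombinase paralog that works with Rad51c, was at 11.3, 12.0 and 13.7 CPM in Dox, against 2.12, 2.29 and 1.73 CPM in Control (2.59 ± 0.19 SE). The paralogs thus moved apart, since Xrcc3 rose and Rad51b, Rad51c and Rad51d fell, by 2.70, 1.18 and 1.07.

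The BRCA genes also split. Palb2 (gene ID 233826, chr7:122107262-122132980) was at 22.1, 19.99 and 18.2 CPM in Dox, against 3.18, 2.87 and 4.11 CPM in Control, 5.93-fold higher (log2 fold change 2.57 ± 0.15 SE, edgeR adjusted p = 6.79e-14). Brca1 was at 54.5, 45.0 and 53.7 CPM in Dox and at 81.9, 92.5 and 96.5 CPM in Control, and so fell (−0.82 ± 0.08 SE). Brca2 was at 20.9, 13.4 and 14.2 CPM in Dox, against 16.6, 15.1 and 13.8 CPM in Control, overlapping groups that did not pass the test (0.09 ± 0.16 SE, edgeR adjusted p = 0.594). Bard1 did not pass either (−0.03 ± 0.12 SE), and Brip1 rose by 0.50 ± 0.14 SE.

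In the Fanconi pathway Usp1 rose and its substrate Fancd2 fell. Usp1 was at 234, 284 and 273 CPM in Dox, against 52.3, 68.2 and 64.2 CPM in Control, 4.28-fold higher (log2 fold change 2.098 ± 0.09 SE, edgeR adjusted p = 1.87e-16). Fancd2 was at 20.9, 17.0 and 20.0 CPM in Dox and at 39.3, 42.1 and 42.4 CPM in Control, and so fell (−1.10 ± 0.10 SE). Fanci was at 14.1, 13.1 and 11.1 CPM in Dox, against 16.2, 14.2 and 14.799 CPM in Control, and missed the threshold (−0.24 ± 0.12 SE, edgeR adjusted p = 0.0777). With size factors (RLE), with DESeq2 and in a fit of these 2 groups alone Fanci passed as lower. Ube2t fell by 1.48 ± 0.12 SE, while of the core genes Fanca rose by 2.08 ± 0.10 SE, Fance by 1.77 ± 0.10 SE, Fancg by 1.48 ± 0.10 SE and Fancm by 1.34 ± 0.11 SE. Among the nucleases Eme1 rose by 1.94 ± 0.18 SE and its partner Mus81 fell by 0.82 ± 0.18 SE.

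Doxorubicin after the Hif1a siRNA, Hif1a_siRNA_Dox against Hif1a_siRNA, gave a different balance. Here 24 genes were lower and 10 were higher, where 84.2% of all tested genes were called, 41.6% as lower and 42.6% as higher. The median log2 fold change was −0.61 for the members and 0.041 for all tested genes. Lower were 8 of the 9 strand exchange genes, 5 of the 6 resection genes and 4 of the 5 BRCA genes. So were 4 of the 9 core genes (Ube2t among them), 2 of the 3 genes of the FANCD2 and FANCI step and 1 of the 3 nucleases. Hif1a_siRNA is the group in which 17 of these genes were highest, and the drug is set against it here, so this comparison shares those 3 libraries with the knockdown comparison. The groups did not overlap for 34 of the 35 genes, against 85.2% of all tested genes. With upper-quartile scaling, which moved the median of all genes to 0.19 here and to 0.222 in Dox against Control, 19 genes were lower and Rad54b, Xrcc2, Rad50, Fancc and Slx4 lost their calls.

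The largest decreases again included Nbn and Rad51b. Nbn was at 5.16, 6.07 and 3.22 CPM in Hif1a_siRNA_Dox, against 64.5, 60.8 and 59.5 CPM in Hif1a_siRNA (log2 fold change −3.66 ± 0.14 SE, edgeR adjusted p = 7.51e-17). Rad51b was at 2.49, 2.27 and 2.81 CPM with the drug and at 12.5, 13.2 and 13.5 CPM without it (−2.37 ± 0.17 SE). Brca2 was at 10.0, 10.8 and 14.3 CPM in Hif1a_siRNA_Dox, against 37.7, 43.7 and 37.6 CPM in Hif1a_siRNA (−1.76 ± 0.15 SE, edgeR adjusted p = 3.14e-10). All 3 genes had separate groups. Bard1 fell by 1.74 ± 0.12 SE, Rad51ap1 by 1.65 ± 0.11 SE, and Ube2t by 1.59 ± 0.12 SE. Fancd2 was at 17.5, 15.7 and 20.6 CPM in Hif1a_siRNA_Dox, against 50.2, 49.98 and 52.3 CPM in Hif1a_siRNA (−1.502 ± 0.10 SE). Brca1 was at 60.8, 59.0 and 62.3 CPM in Hif1a_siRNA_Dox, against 116, 117 and 125 CPM in Hif1a_siRNA, and fell by 0.98 ± 0.08 SE. Fanci was at 10.9, 9.06 and 10.0 CPM in Hif1a_siRNA_Dox, against 20.3, 18.9 and 20.6 CPM in Hif1a_siRNA, and fell by 1.00 ± 0.12 SE.

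The genes that rose were a smaller set. Xrcc3 was at 11.7, 16.7 and 15.2 CPM in Hif1a_siRNA_Dox, against 1.55, 1.93 and 2.13 CPM in Hif1a_siRNA (log2 fold change 2.95 ± 0.18 SE, edgeR adjusted p = 4.51e-13). Fance, a core subunit that contacts FANCD2, was at 55.4, 57.2 and 61.1 CPM with the drug and at 16.8, 15.4 and 19.5 CPM without it (1.75 ± 0.10 SE). Palb2 was at 27.2, 24.6 and 29.2 CPM in Hif1a_siRNA_Dox, against 9.36, 8.16 and 8.00 CPM in Hif1a_siRNA (1.67 ± 0.13 SE). In each of the 3 genes the lowest library with the drug lay above the highest without it. Usp1, at 337, 362 and 317 CPM in Hif1a_siRNA_Dox and 196, 194 and 200 CPM in Hif1a_siRNA, rose by 0.78 ± 0.08 SE, and Fanca by 1.60 ± 0.09 SE. The calls of Xrcc2, Fancf and Slx4 as lower were lost without Hif1a_siRNA_Dox replicate 1, with adjusted p-values of up to 0.118, 0.0752 and 0.0885. The call of Rad54b (−0.33, edgeR adjusted p = 0.0484) was lost without any 1 of 10 libraries: every Control and Dox library, NC_siRNA replicate 1, Hif1a_siRNA replicate 3 and Hif1a_siRNA_Dox replicates 2 and 3, where it reached 0.139. It was also lost with RLE scaling (0.0624) and with DESeq2 (0.0546).

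The drug's effect with the siRNA and without it share no library, and 10 genes were higher in both. These were Palb2, Xrcc3, Exo1, Fanca, Fancb, Fance, Fancg, Fancm, Eme1 and Usp1, 5 of them core complex subunits. Lower in both were 13 genes: Brca1, Rad51ap1, Rad51b, Rad51c, Rad51d, Rad52, Blm, Nbn, Rbbp8, Fancc, Fancd2, Fancl and Ube2t. Of these Rad51ap1 lost its call in Dox against Control with upper-quartile scaling (−0.231, edgeR adjusted p = 0.0645). Under the same scaling Fancc lost its call with the siRNA (−0.265, edgeR adjusted p = 0.096). Brip1, Rad54b, Rad50 and Slx4 were lower with the siRNA and higher without it. Upper-quartile scaling kept the lower call of Brip1 and removed those of Rad54b, Rad50 and Slx4 (edgeR adjusted p = 0.268, 0.212 and 0.149). Rad54b and Slx4 also lost that call without some single libraries. Brca2, Bard1, Rad54l, Xrcc2, Mre11a, Fancf and Fanci were lower with the siRNA and did not pass without it, and Mus81 was lower only without it, which alone does not show a difference. Of all tested genes 83.8% were called in Dox against Control and 84.2% in Hif1a_siRNA_Dox against Hif1a_siRNA. The share of all genes called alike in both was not counted, so these counts describe the members only.

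The difference of these effects, tested directly, was lower after the siRNA for 21 genes and higher for 3, where 58.6% of all tested genes were called, 32.3% as lower and 26.3% as higher. The median difference was −0.58 on the log2 scale for the members and −0.06 for all tested genes. Brca2 changed by −1.76 with the siRNA and by 0.09 without it, a difference of −1.85 ± 0.22 SE (edgeR adjusted p = 2.45e-07). Bard1 and Brip1 differed by −1.71 ± 0.17 SE and −1.69 ± 0.18 SE, and Exo1, which rose in both, by −2.04 ± 0.26 SE. Blm and Nbn fell less after the siRNA, with differences of 1.14 ± 0.10 SE and 1.12 ± 0.20 SE. Brca1, Ube2t and Fance showed differences of −0.15 ± 0.12, −0.12 ± 0.17 and −0.02 ± 0.14 SE that did not pass the test. Because Hif1a_siRNA enters this difference with a minus sign and Dox and Control received no siRNA, the effects of transfection and of Hif1a loss cannot be told apart in it.

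**Figure D4:**
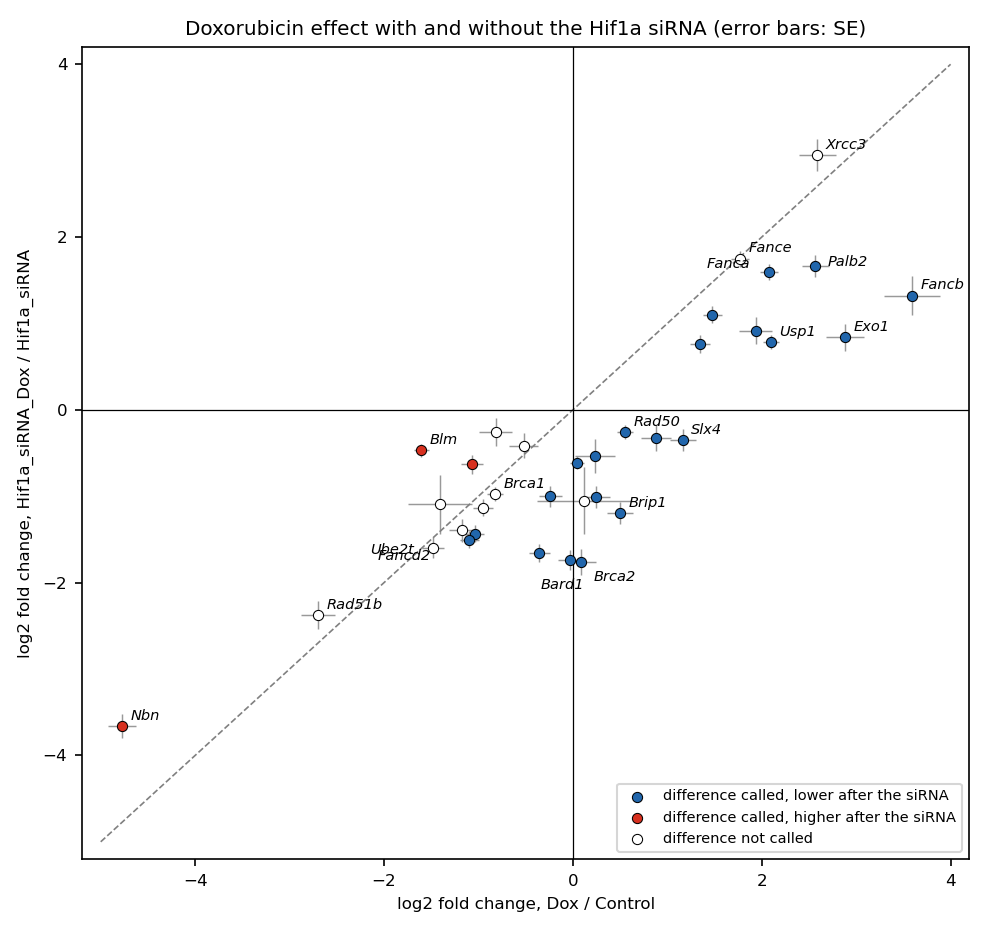
Log2 fold change of each of the 35 genes with doxorubicin after the Hif1a siRNA (vertical, Hif1a_siRNA_Dox over Hif1a_siRNA) against that without siRNA (horizontal, Dox over Control), with SE as error bars, the diagonal of equal effects, and colour for a called difference. Most points lie below the diagonal, Brca2 and Bard1 lie near 0 on the horizontal axis and far below 0 on the vertical, and Nbn and Blm lie above the diagonal.

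The comparison of Hif1a_siRNA_Dox with Dox asked what the Hif1a siRNA added under the drug, and the differences were small. Of the 35 genes 10 were higher, 4 were lower and 21 did not pass, where 42.2% of all tested genes were called, 21.5% as higher and 20.8% as lower. The median log2 fold change was 0.18 for the members and 0.013 for all tested genes. The groups did not overlap for 12 genes, against 45.6% of all tested genes. The split of 10 higher and 4 lower became 13 and 2 with size factors (RLE) and with DESeq2, and 7 and 0 in a fit of these 2 groups alone.

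Mus81 was at 7.33, 6.72 and 4.80 CPM in Hif1a_siRNA_Dox, against 4.07, 3.74 and 3.68 CPM in Dox (log2 fold change 0.72 ± 0.17 SE, edgeR adjusted p = 0.00218). Exo1 was at 17.4, 22.5 and 19.1 CPM in Hif1a_siRNA_Dox and at 12.7, 13.6 and 11.6 CPM in Dox (0.64 ± 0.16 SE). For both genes the groups were separate. Blm rose by 0.50 ± 0.08 SE, Rbbp8 by 0.49 ± 0.10 SE, Palb2 by 0.42 ± 0.12 SE and Usp1 by 0.36 ± 0.08 SE, and these 6 calls held without any 1 library. Nbn, at 5.16, 6.07 and 3.22 CPM in Hif1a_siRNA_Dox and 2.71, 3.74 and 3.41 CPM in Dox, overlapped between the groups (0.57 ± 0.17 SE, edgeR adjusted p = 0.0114). Its call was lost without Dox replicate 1 or Hif1a_siRNA_Dox replicate 2 (up to 0.117).

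All 4 calls of a lower level depended on single libraries. Brca2 was at 10.0, 10.8 and 14.3 CPM in Hif1a_siRNA_Dox, against 20.9, 13.4 and 14.2 CPM in Dox, overlapping groups (log2 fold change −0.47 ± 0.16 SE, edgeR adjusted p = 0.02). It lost its call without Dox replicate 1, the highest Dox library, or without Hif1a_siRNA_Dox replicate 1 or 2 (up to 0.214), and the value was then as small as −0.24. Fanci was at 10.9, 9.06 and 10.0 CPM in Hif1a_siRNA_Dox, against 14.1, 13.1 and 11.1 CPM in Dox (−0.36 ± 0.12 SE, edgeR adjusted p = 0.0242), and lost its call without Dox replicate 1 or 2 or Hif1a_siRNA_Dox replicate 2 (up to 0.116). Rad51c was at 6.87, 6.37 and 7.70 CPM in Hif1a_siRNA_Dox, against 8.10, 9.15 and 9.40 CPM in Dox (−0.35 ± 0.14 SE, edgeR adjusted p = 0.0494), and lost its call in 9 of 15 fits without 1 library (up to 0.14), those without Control replicate 2 or 3, NC_siRNA replicate 2, Hif1a_siRNA replicate 2 or 3, Dox replicate 2 or 3 and Hif1a_siRNA_Dox replicate 1 or 2. Mre11a (−0.22 ± 0.07 SE) lost its call without Dox replicate 1 or 3 or Hif1a_siRNA_Dox replicate 1 (up to 0.0726). Of the higher calls, Brca1 (0.25) was lost without Dox replicate 2 (edgeR adjusted p = 0.131), Fance (0.29) without Dox replicate 3 (0.0674), and Rad51d (0.35) without Dox replicate 2 or 3 or Hif1a_siRNA_Dox replicate 3 (up to 0.17).

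Other genes of the pathway were followed as a list of 52 (53 rows, since Atrip, the partner of the ATR kinase, has 2 gene IDs whose split of reads is uncertain). In Hif1a_siRNA against NC_siRNA 28 rose and 11 fell, with a median log2 fold change of 0.27, led by Rmi2 of the Bloom helicase complex (4.02 ± 0.29 SE), the checkpoint kinase gene Chek1 (3.27 ± 0.14 SE) and Gen1, a resolvase of crossed DNA strands (3.03 ± 0.14 SE). In Dox against Control 26 rose and 19 fell, led by Top3a (4.66 ± 0.12 SE), a topoisomerase that works with BLM, Tonsl (3.86 ± 0.21 SE) and 1 row of Atrip. After the siRNA 25 rose and 21 fell with the drug, with Fignl1 at −5.02 ± 0.20 SE, Top3a at 3.03 ± 0.10 SE and Tonsl at 2.91 ± 0.18 SE. In Hif1a_siRNA_Dox against Dox 15 rose and 6 fell, and the replication protein gene Rpa3 was the largest called change (0.98 ± 0.08 SE).

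Genes of S phase and of mitosis moved beside the members. In Hif1a_siRNA against NC_siRNA 25 of 26 S phase genes and all 24 mitosis genes were higher, with median log2 fold changes of 1.99 and 1.58. Cdc6, Pole and Mcm10, which start and carry out DNA replication, led the first list (3.41, 3.21 and 2.73), and Bub1, Birc5 and Ndc80, which act in chromosome segregation, the second (2.12, 1.98 and 1.95). The S phase gene that was lower was E2f1, itself of the E2F family (−0.625 ± 0.085 SE, edgeR adjusted p = 7.42e-07). E2f1 was also lower in Dox against Control (−0.481 ± 0.086 SE, edgeR adjusted p = 1.94e-05). In NC_siRNA against Control 23 S phase genes and all 24 mitosis genes were lower, with medians of −0.81 and −1.10. In Dox against Control 23 S phase genes were higher and 2 lower (median 1.77), led by Orc1 at 3.54, while 11 mitosis genes were higher and 12 lower (median −0.17), with Top2a, the gene of a topoisomerase that doxorubicin traps, at −3.39. After the siRNA the drug raised 15 S phase genes and lowered 5 (median 0.27), and raised 4 mitosis genes and lowered 13 (median −0.40).

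The summed levels show where these lists and the members part. S phase genes summed to 2069 to 2245 CPM in Hif1a_siRNA_Dox, 2142 to 2230 in Dox, 1724 to 1761 in Hif1a_siRNA, 557.5 to 584.0 in NC_siRNA and 905.7 to 936.5 in Control. They were thus highest in the drug groups, where the strand exchange members summed to 112.5 to 132.4 CPM in Hif1a_siRNA_Dox and 105.8 to 116.7 CPM in Dox, against 217.8 to 220.7 CPM in Hif1a_siRNA, 107.9 to 117.7 CPM in NC_siRNA and 135.8 to 148.0 CPM in Control. Mitosis genes summed to 2194 to 2331 CPM in Hif1a_siRNA_Dox, 2228 to 2346 in Dox, 3332 to 3495 in Hif1a_siRNA, 1272 to 1369 in NC_siRNA and 3002 to 3140 in Control. Core complex members together with Ube2t summed to 257.9 to 280.9 CPM in Hif1a_siRNA_Dox and 242.7 to 262.4 CPM in Dox, against 130.2 to 139.6 CPM in Hif1a_siRNA, 82.3 to 84.3 CPM in NC_siRNA and 105.9 to 110.8 CPM in Control. The part of cell cycle distribution in the members' changes was not tested.

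**Figure D5:**
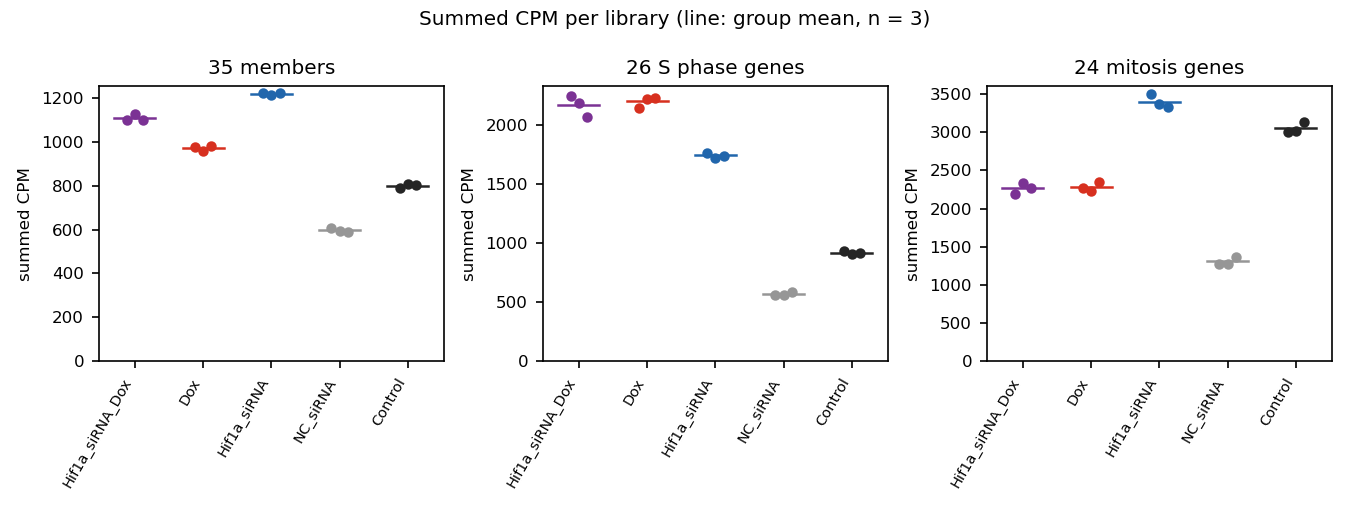
Summed CPM per library of the 35 genes, of 26 S phase genes and of 24 mitosis genes, with a line at each group mean (n = 3). The 35 genes and the mitosis genes are highest in Hif1a_siRNA, the S phase genes are highest in both drug groups with this TMM scaling, and NC_siRNA is lowest in all 3 panels.

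Some members share exon bases with a neighbouring gene in the annotation, and the strand setting of the counting is not given in the sources used here, so reads could be split between such pairs. The largest share was 35.8% of the exon bases of Rad54b, with Fsbp on the same strand. Fsbp missed the threshold in Hif1a_siRNA against NC_siRNA (0.66 ± 0.30 SE, edgeR adjusted p = 0.0663). It passed, in the direction of Rad54b, in Hif1a_siRNA against Control (0.78 for Fsbp and 1.28 for Rad54b), in Hif1a_siRNA_Dox against Hif1a_siRNA (−0.71 and −0.33) and in the difference of the doxorubicin effects (−1.22 and −1.21). Fanci shares 16% with Polg, Rad54l 15.4% with Lrrc41, Fancf 15.0% with Gas2, Fancl 13.7% with Vrk2 and Fanca 10.5% with Zfp276, all on opposite strands. Polg and Lrrc41 did not pass in Hif1a_siRNA against NC_siRNA (−0.08 and −0.10), where Fanci and Rad54l rose. Polg rose in Dox against Control (1.70), where Fanci did not pass. It also rose in Hif1a_siRNA_Dox against Hif1a_siRNA (1.17) and in NC_siRNA against Control (0.73), where Fanci fell. Both rose in Hif1a_siRNA against Control (0.64 for Polg and 0.40 for Fanci). In the difference of the doxorubicin effects Polg was at −0.525 and Fanci at −0.761. Vrk2 was at 6.95 CPM in Hif1a_siRNA_Dox, 6.28 in Dox, 19.1 in Hif1a_siRNA, 10.2 in NC_siRNA and 16.4 in Control on average, and fell with the drug (−1.39 ± 0.13 SE) as Fancl did. Fanca and Zfp276 both rose with the drug. The values of Rad54b, Fanci, Rad54l, Fancl, Fanca and Fancf are uncertain to that extent.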

How the data were processed

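For each of the 15 libraries the authors deposited whole read counts by gene, without normalization. Per the submitters' processing notes the genome build was mm10, and StringTie 2.1.3b, HISAT2 2.1.0, Trimmomatic 0.38, Bowtie2 2.3.4.1 and FastQC 0.11.7 are named without their roles. Per the labels' protocols libraries came from a TruSeq Stranded mRNA kit. The strand setting of the counting is not given in the sources used here. Of 13172 genes listed for any group, 12721 were listed for all 5 and fitted together, and 451 were left out. Repeated gene IDs (24 to 28 in each table outside Control) held identical values and were kept once. Of the genes 1491 had no symbol and were named by gene ID, none of them a member.

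The fit used edgeR 4.0.16 in R 4.3.3 with TMM scaling, a group term, no replicate block, robust quasi-likelihood dispersions (common biological coefficient of variation 0.091) and two-sided F tests on 10 residual degrees of freedom. Benjamini-Hochberg adjustment covered all 12721 genes in each of 7 comparisons, at a threshold of 0.05. The low-count filter (10 reads, total of 15) removed 0 genes, so all 35 members passed. Errors are SE for log2 fold changes and SD for CPM. Counting error weighs most on genes with few reads.

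Members, gene lists, motifs and the naming rule were chosen with earlier results of these data known. Values in every library are given for the 3 largest called increases and decreases of the first 4 comparisons (Hif1a_siRNA against NC_siRNA, Dox against Control, and Hif1a_siRNA_Dox against each of Dox and Hif1a_siRNA) and for Brca1, Brca2, Fancd2, Fanci and Usp1, and for the lists the 3 largest changes. E2f1 is named outside this rule, because its direction bears on the E2F-like letters. Alternatives were DESeq2 1.42.0, RLE or upper-quartile scaling, no filter or one of 1 CPM in 3 libraries, a replicate block, fitting the compared groups alone, an adjusted p under 0.01, and leaving out each library in turn. No 2 libraries agreed within sampling noise (chi-square per degree of freedom 3.56 to 34.49). On simulated data with 200 changed genes of 12721 the procedure recovered 65.7%, 88.1% and 97% of changes of 1.5, 2 and 4 fold in the knockdown comparison, and 4.02% of its calls were unchanged genes. In Dox against Control it recovered 67.2%, 83.6% and 97%, and 6.25% of its calls were unchanged genes, above the 5% that the threshold aims at. In the real data 67.7% and 83.8% of tested genes were called in these 2 comparisons, far more than were changed in the simulation. The simulated rates need not hold for these data. Promoter windows are RefSeq's for GRCm38.p6.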

Additional observations from a re-analysis of the deposited data

Results flagged for a closer look

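The effect of doxorubicin with the Hif1a siRNA and the effect without it differed for 24 of the 35 members, by a direct test of the difference (edgeR, Benjamini-Hochberg over 12721 genes). Values are log2 differences, the effect after the siRNA minus the effect without it, and adjusted p-values ran from 2.94e-09 for Usp1 to 0.0305 for Xrcc2. The cause of these differences was not tested, and transfection and Hif1a loss cannot be told apart in them.

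In the BRCA group the differences were −1.854 for Brca2, −1.709 for Bard1, −1.692 for Brip1 and −0.901 for Palb2. Palb2 rose in both settings. Brca2 and Bard1 fell after the siRNA and had no call without it (log2 fold changes of 0.090 and −0.030). In strand exchange they were −1.297 for Rad51ap1, −1.254 for Rad54l, −1.212 for Rad54b (whose exons overlap those of Fsbp, at −1.22), −0.772 for Xrcc2 and 0.436 for Rad51d. Rad51d lost its call without Control replicate 3, Hif1a_siRNA replicate 1 or 3, Dox replicate 2 or 3 or Hif1a_siRNA_Dox replicate 3 (adjusted p up to 0.108), and Xrcc2 with the replicate block and without Control replicate 2 or 3, Hif1a_siRNA replicate 1, Dox replicate 3 or Hif1a_siRNA_Dox replicate 1 (up to 0.0946).

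In end resection they were −2.04 for Exo1, −0.813 for Rad50, −0.656 for Mre11a, −0.393 for Rbbp8, 1.118 for Nbn and 1.136 for Blm. Nbn and Blm fell in both settings, and by less after the siRNA. The call of Rbbp8 was lost without Dox replicate 1 (adjusted p = 0.0707), with RLE scaling (0.0665) and with DESeq2 (0.06). In the core complex they were −2.27 for Fancb, −0.579 for Fancm, −0.479 for Fanca and −0.376 for Fancg, which lost its call without Control replicate 2, Hif1a_siRNA replicate 1 or 3 or Dox replicate 1 (up to 0.0733), with RLE scaling (0.0854) and with DESeq2 (0.0752). All 4 rose with the drug in both settings. The last group comprised −1.315 for Usp1, −0.761 for Fanci and −0.406 for Fancd2, and −1.516 for Slx4 and −1.019 for Eme1 among the nucleases.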

How the results depend on the processing

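No member changed direction past the threshold under any alternative. The counts of members called lower in Hif1a_siRNA_Dox against Dox moved most: 4 as reported became 2 with size factors (RLE), 2 with DESeq2, 0 when the compared groups were fitted alone and 0 at an adjusted p under 0.01, where the higher count also became 6 in place of 10. Leaving out 1 library gave 1 to 4 lower genes there: 1 without Dox replicate 1 or Hif1a_siRNA_Dox replicate 1, and 2 without Dox replicate 2, Dox replicate 3 or Hif1a_siRNA_Dox replicate 2. The cause was not tested. Every other count of higher or lower members stayed within 1.5 times its reported value in every alternative run. Of the reported calls, those kept without any 1 library were 26 of 28 in Hif1a_siRNA against NC_siRNA, 28 of 28 in Dox against Control, 6 of 14 in Hif1a_siRNA_Dox against Dox, 30 of 34 in Hif1a_siRNA_Dox against Hif1a_siRNA, 22 of 25 in NC_siRNA against Control, 25 of 27 in Hif1a_siRNA against Control and 20 of 24 in the difference of the doxorubicin effects.

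Under an adjusted p of 0.01, 24 of the 245 member values lost their call. RLE size factors changed the side of the threshold for 13 values, upper-quartile factors for 11, DESeq2 for 12 and the fit of the compared groups alone for 15. In the difference of the doxorubicin effects the lower count ranged from 17 to 21 over these alternatives, and in Hif1a_siRNA_Dox against Hif1a_siRNA from 19 to 24.

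No shared effect of the replicate number was seen: 30 correlations between same-numbered libraries ran from −0.162 to 0.087, and 4 of 15 libraries correlated best with their own number. With 3 libraries a group this cannot exclude that the numbers pair samples, which the labels do not state. With the replicate block, higher and lower members were 25 and 2 in Hif1a_siRNA against NC_siRNA, 14 and 14 in Dox against Control, 10 and 4 in Hif1a_siRNA_Dox against Dox, 10 and 23 in Hif1a_siRNA_Dox against Hif1a_siRNA, 7 and 18 in NC_siRNA against Control, 25 and 2 in Hif1a_siRNA against Control, and 3 and 20 in the difference. The block changed 3 calls of 245: Fancc in Hif1a_siRNA against NC_siRNA (edgeR adjusted p = 0.0516), Rad54b in Hif1a_siRNA_Dox against Hif1a_siRNA (0.0504) and Xrcc2 in the difference (0.0511).

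With 3 libraries a group, depth limits the low genes most: Fancb and Fancf held 5 reads in their lowest library and Fancl 13, and their SEs were the widest among the members.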

Other observations

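Members that span more of the genome tended to have lower values with doxorubicin. In Dox against Control the median log2 fold change was −0.24 for the 15 members over 50 kb and 0.86 for the 12 under 20 kb, against −0.18 and 0.25 for all tested genes of those spans. In Hif1a_siRNA_Dox against Hif1a_siRNA the medians were −0.98 and 0.26 for the members, against −0.38 and 0.37 for all genes. Spearman's rho between span and log2 fold change over the 35 members was −0.39 in each of the 2 comparisons, against −0.09 and −0.20 over 12702 genes. In NC_siRNA against Control rho was −0.49 over the members and 0.29 over all genes, opposite signs. These are correlations across genes measured in the same libraries, with no test. Rad51b, the member with the widest span (551 kb), fell by 2.70 with the drug, while Nbn, which fell most, spans 35 kb.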
